A study of Drosophila melanogaster with 12 samples.

Results

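The genes described here are those whose expression in γ neurons of the Drosophila mushroom body had a peak or a dip in the middle of the interval sampled, at 12 and 18 h after puparium formation, set against its ends at 6 and 24 h. Members were genes of the deposited table that reached 50 in 3 or more of its 12 value columns, and whose mean at 12 h and mean at 18 h both lay above, or both below, the means at 6 h and at 24 h. Of 17050 genes in the table, 6969 passed the filter, and 1964 of these were members. In 1337 of them (19.2% of the genes that passed) both middle means were higher than both end means, and in 627 (9.00%) both were lower. The rule compares means and asks nothing of their spread.

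The study made 12 RNA libraries, 3 at each time, lettered A, B and C. Each holds 1000 DsRed-positive cells sorted from dissociated brains of pupae of both sexes, reared at 25 °C. All groups share 1 genotype: 71G10, a driver line active in γ neurons, over UAS-HR51 RNAi, together with UAS-RedStinger/+ (a red nuclear marker) and y,w/+. The groups are pupae with this genotype at 12 h and at 18 h, and the same at 6 h and at 24 h. No library of a control genotype was analysed here, so the values describe time courses in neurons in which Hr51 was targeted and say nothing of the effect of the targeting. The labels do not say whether lettered libraries came from separate dissections or how many animals a library holds, so p-values measure the spread between these libraries, which may be technical.

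γ neurons are the earliest-born intrinsic neurons of the mushroom body, the insect centre for olfactory memory. Early in metamorphosis the steroid hormone ecdysone, acting through its receptor EcR, makes them prune their larval axon branches and dendrites, and later in pupal life they regrow axons of adult form. Hr51, also called unfulfilled, encodes a nuclear receptor that γ neurons need for this regrowth.

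Values are the reads of a gene per 10000000 mapped reads, from 3′-end libraries. Libraries held 1597241 to 3752666 mapped reads, 1 read was worth 2.7 to 6.3 units, and a value of 50 stood for 8 to 18.8 reads. The 6 h and 12 h libraries of replicate A stood apart from their labels' groups. By correlation of log2 values over the 6969 genes, 6 h A was closest to 18 h B, 12 h A was closest to 6 h B, and both 6 h B and 6 h C were closest to 12 h A. Other libraries also were closest to one of another time: 12 h B to 18 h A, 18 h A to 12 h B, 18 h B to 6 h A and 18 h C to 24 h C. Thus no 18 h library was closest to another 18 h library. Labels were kept as given, and the values of replicate A, where printed, are set apart from those of B and C. All 16 γ and Kenyon cell markers and all 10 neuron markers passed the filter. The γ and Kenyon cell markers summed to 2.43% to 3.08% of reads in the middle libraries and 2.08% to 3.50% in the end libraries. Of 10 glia markers 2 passed the filter and of 6 hemocyte markers 0, with Hml, NimC1 and He at 0 in all 12 libraries. Of 5 muscle markers 1 passed. The muscle myosin Mhc was at 0 in all 12 libraries, while Tm2 reached 302 in 12 h C and 296 in 24 h A. Of 5 cuticle markers 3 passed, and they were uneven over time. TwdlT had 719 and 883 at 6 h in B and C and 496 at 12 h in A, against 0 at 18 h in all 3 letters. Of 7 fat body markers 2 passed, of 7 photoreceptor markers 1 and of 9 dividing cell markers 4. Hr51 itself was present in every library. Its values in B and C were 3741 and 3794 at 12 h and 4325 and 2661 at 18 h, against 5044 and 5666 at 6 h and 2813 and 3646 at 24 h, and it was not a member.

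Over all 12 libraries the middle and the ends could not be separated gene by gene. The contrast of the mean of 12 and 18 h minus the mean of 6 and 24 h, fitted with limma on log2(value + 1) and adjusted by the Benjamini-Hochberg method over the 6969 genes, called 0 genes at an adjusted p under 0.05 (0% of genes tested), while 307 had an unadjusted p under 0.05. On reads recovered from the values, edgeR's quasi-likelihood test called 0 and DESeq2 called 2, Hsp68 as higher and ImpE2 as lower. With replicate A of 6 h and of 12 h left out, a choice made after the data had been seen, limma called 144 genes, 81 higher and 63 lower.

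In replicates B and C alone, with 2 libraries per time, the same contrast called 163 genes (2.34% of those tested), 79 higher in the middle (1.13%) and 84 lower (1.21%). After median-ratio scaling, which moved the median log2 difference of all genes in B and C to −0.01, against 0.11 in the values as deposited, it called 49 higher and 110 lower. A stricter test asked that both middle times differ from both ends in 1 direction. It called 0 genes over 12 libraries (0%; 4 at an unadjusted p under 0.05, namely CG42265, Hsp68, Sirup and Lgr3) and 0 in B and C (0%; 19 unadjusted), and the smallest adjusted p was 1 in both. On recovered reads edgeR gave 0 in both, and DESeq2 gave 0 over 12 libraries and 1 in B and C, CG15765, with an adjusted p of 0.0356.

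These calls rest on few libraries. Leaving out 1 of the 8 libraries gave 57 calls (without 12 h C) to 157 (without 6 h C), with 75 without 24 h B, 82 without 24 h C, 91 without 18 h C and 100 without 18 h B. Of the 60 genes called in B and C and named below, 22 kept their call without each of the 8 libraries: ATPsynC, Act5C, Blimp-1, CG15765, CG31814, CG34362, Ca-alpha1T, DIP-gamma, EcR, Eip93F, Hr4, Hsp67Bc, Kr-h1, Lkr, Octbeta1R, Stam, ab, beat-Ic, betaTub56D, msn, nAChRalpha1 and rad. Median-ratio scaling ended the call of 12 of the 60, all higher in the middle: CG7215, CG11590, CG7185, Ef1alpha100E, CG2061, Top2, Hel25E, Bacc, Nlg3, RpS24, RpS30 and Rdl. edgeR did not call 6 of these 12 (CG7185, Top2, Hel25E, Nlg3, RpS24 and RpS30). None of the 60 changed sign under any alternative fit within B and C, and these fits hold no library of A. Over 12 libraries Jupiter did change sign, with a log2 difference of 0.10, against −0.51 in B and C.

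The contrast does not by itself mean a peak or a dip. Of the 79 genes called higher in B and C, 30 had both middle means above both end means in these libraries. In the other 49, both middle means lay above the 6 h mean while the 24 h mean was as high as a middle mean or higher. Of the 84 called lower, 39 had both middle means below both ends, and in the other 45 both were below 6 h only. No called gene had its middle means beyond the 24 h mean alone. Over all 12 columns, 16 of the 79 and 13 of the 84 were members.

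Replicate A had the opposite sign for nearly all of these genes. Of the 79 genes called higher in B and C, 5 (6.33%) had a positive contrast in A, against 51.0% of all genes tested. Of the 84 called lower, 4 (4.76%) had a negative contrast in A, against 48.9% of all genes. The median contrast in A was −0.84 for those called higher and 0.91 for those called lower. No called gene had the peak or dip in A by itself, and 38 of the 79 and 45 of the 84 had the opposite one. Since 2 of the 4 libraries of A stand apart, their part in this was not tested.

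**Figure D1:**
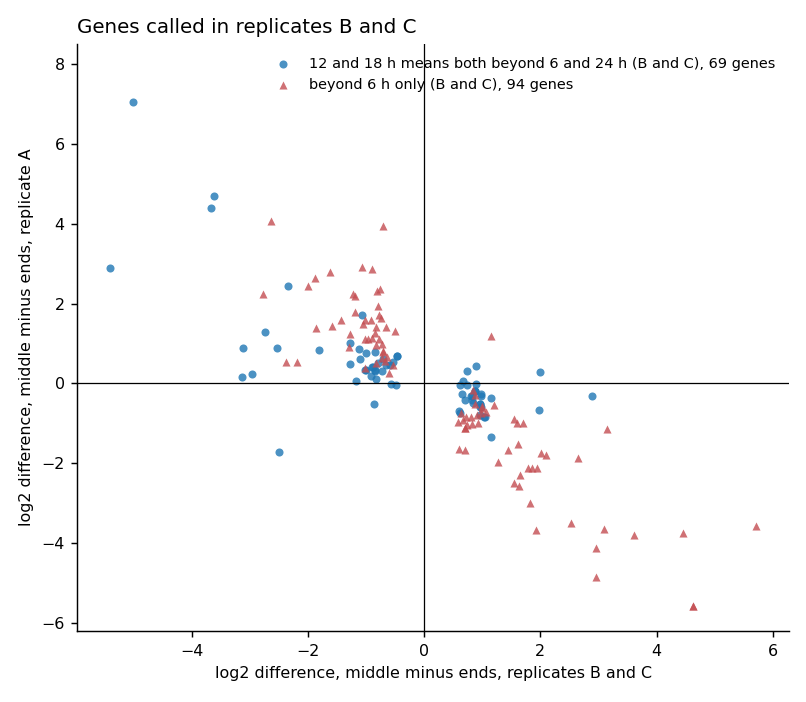
Each point is 1 of the 163 genes called in replicates B and C. The x axis gives its log2 difference, middle minus ends, in B and C, and the y axis the same difference in replicate A; 69 points have both middle means beyond both ends in B and C and 94 beyond 6 h only, and most points lie at the upper left and the lower right.

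As a whole the members had small peaks and dips. The smaller of the 2 middle means exceeded the larger of the 2 end means by a median ratio of 1.13 in the 1337 higher members, and the corresponding ratio was 1.12 in the 627 lower ones. It reached 1.5 in 172 higher and 91 lower members and 2 in 47 and 31. Most of the largest ratios were those of genes with few reads: of the 47 and 31 genes, 3 and 1 had a mean value of at least 200. The means peaked at 12 h in 592 of the higher members and at 18 h in 745. Among lower members the lowest mean was at 12 h in 308 and at 18 h in 319.

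The replicates disagreed on which genes peak or dip. Of the higher members, 34 had the peak in each of A, B and C taken alone, 452 in 2 of them, 701 in 1 and 150 in none. Of the lower members, 17 had the dip in all 3 letters, 181 in 2, 336 in 1 and 93 in none. Genes with the peak in B alone (1692) had it in C in 21.8% of cases, against 16.4% of all genes tested, and genes with the dip in B alone (649) had it in C in 23.3%, against 13.4%. Genes with the peak by the means of B and C (1497) had it in A in 11.6% of cases and the opposite in 17.8%, against 19.2% and 17.2% of all genes. For the 680 with the dip by the means of B and C the shares in A were 11.2% with the dip and 22.4% with a peak, against 17.2% and 19.2% of all genes.

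Among the genes lower in the middle, 11 were called in B and C, were members both over all columns and over B and C, had no overlap between the 4 middle and 4 end values of B and C, and had a mean of at least 200 in them. Several encode enzymes and channels of neuronal signalling. The gene rad (rsh in the current annotation, radish) is needed in flies for a form of memory that resists anaesthesia. It had 1884 and 3092 at 12 h and 1519 and 1697 at 18 h in B and C, against 5050 and 4984 at 6 h and 4329 and 4844 at 24 h. The log2 difference of rad was −1.28 ± 0.18 SE (limma adjusted p = 0.000739). Replicate A had 5052 at 12 h and 2272 at 18 h, against 2727 at 6 h and 2169 at 24 h, with its highest value at 12 h.

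Genes of phospholipid signalling were among them. Plc21C, a phospholipase C that cuts membrane phosphoinositide to release diacylglycerol, had 1379 and 1290 at 12 h and 1510 and 1518 at 18 h in B and C, against 3259 and 2886 at 6 h and 1807 and 1816 at 24 h. Its values at 24 h lay only a little above the middle ones (log2 difference −0.73 ± 0.18, adjusted p = 0.0412). In A Plc21C was highest at 12 h, with 2548 there and 1010 at 18 h, against 1030 at 6 h and 1597 at 24 h. Dgk, a diacylglycerol kinase, which converts that product to phosphatidic acid, had 141 and 70.2 at 12 h and 101 and 19.8 at 18 h in B and C, against 290 and 376 at 6 h and 424 and 468 at 24 h. The log2 difference was −2.50 ± 0.62 (adjusted p = 0.0478), and the lowest of these values stand for a few reads. Replicate A also was lowest at 18 h, with 376 at 12 h and 17.3 at 18 h, against 465 at 6 h and 158 at 24 h. Dgk overlaps Atg10 and Plc21C overlaps Ent1, each on the opposite strand. The sources used here do not say whether reads were counted by strand, so the values of Dgk and Plc21C are uncertain.

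Channel genes with a dip were CG42732 and CG42265. CG42732 (SLO2 in the current annotation), a potassium channel activated by sodium, had 1817 and 2429 at 12 h and 2764 and 2582 at 18 h in B and C, against 6006 and 4946 at 6 h and 3085 and 4151 at 24 h (log2 difference −0.90 ± 0.17, adjusted p = 0.00911). Replicate A of CG42732 had 4329 at 12 h and 3105 at 18 h, against 3110 at 6 h and 2460 at 24 h. CG42265 (OtopLc), of the otopetrin family of proton channels, had 1797 and 1603 at 12 h and 2667 and 2463 at 18 h, against 3451 and 4320 at 6 h and 3313 and 4242 at 24 h. Its ends were alike, and its log2 difference was −0.87 ± 0.17 (adjusted p = 0.00977). Replicate A had 3504 at 12 h and 1761 at 18 h for CG42265, against 3196 at 6 h and 3888 at 24 h, so that 18 h was low in all 3 letters. Over 12 libraries CG42265 had the smallest p of the stricter test (unadjusted p = 0.0315, adjusted p = 1 by limma).

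The gene with the smallest p among these was CG15765, at X:5818559-5840823 on the plus strand in the table's coordinates, with no function assigned here. Its values in B and C were 6435 and 9596 at 12 h and 8831 and 7395 at 18 h, against 23479 and 19183 at 6 h and 16508 and 14363 at 24 h (log2 difference −1.18 ± 0.15, adjusted p = 0.000354). In A it had 21351 at 12 h and 7026 at 18 h, against 12608 at 6 h and 10854 at 24 h, so A shared the low value at 18 h and not that at 12 h. CG34384 had 1593 and 1511 at 12 h and 1730 and 2429 at 18 h in B and C, against 3182 and 4827 at 6 h and 3626 and 3021 at 24 h (−1.01 ± 0.19, adjusted p = 0.0084). CG34362 (trv) had 10942 and 11134 at 12 h and 9338 and 8221 at 18 h, against 23583 and 18757 at 6 h and 16372 and 13535 at 24 h (−0.85 ± 0.13, adjusted p = 0.00214). By the means of B and C all 3 genes were highest at 6 h and lower again at 24 h than at 6 h. In A CG34384 had 2798 at 12 h and 1509 at 18 h, against 1503 at 6 h and 1781 at 24 h, and CG34362 had 17837 and 10989, against 11600 and 10992, so both were highest at 12 h.

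The remaining 3 genes of this set encode regulators and a chaperone. The RNA-binding protein gene shep had 28733 to 33898 in the 4 middle libraries of B and C, against 39737 to 48984 in the 4 end libraries, a log2 difference of −0.49 ± 0.12 (limma adjusted p = 0.0463). In A shep had 42681 at 12 h and 29598 at 18 h, against 28266 at 6 h and 46836 at 24 h. The kinase gene nmo (nemo), known for a role in Wnt and planar polarity signalling in flies, had 7395 to 10009 in the middle, against 10385 to 15583 at the ends (−0.59 ± 0.12, adjusted p = 0.0164). In A nmo ran the other way, with 11823 and 13114 in the middle, against 7904 at 6 h and 10283 at 24 h. The small heat shock protein gene Hsp26 had 8811 to 13329 in the middle, against 15464 to 17365 at the ends in B and C (−0.58 ± 0.12, adjusted p = 0.0184). In A it was highest at 12 h, with 21437, and had 9562 at 18 h, against 18729 at 6 h and 11089 at 24 h.

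**Figure D2:**
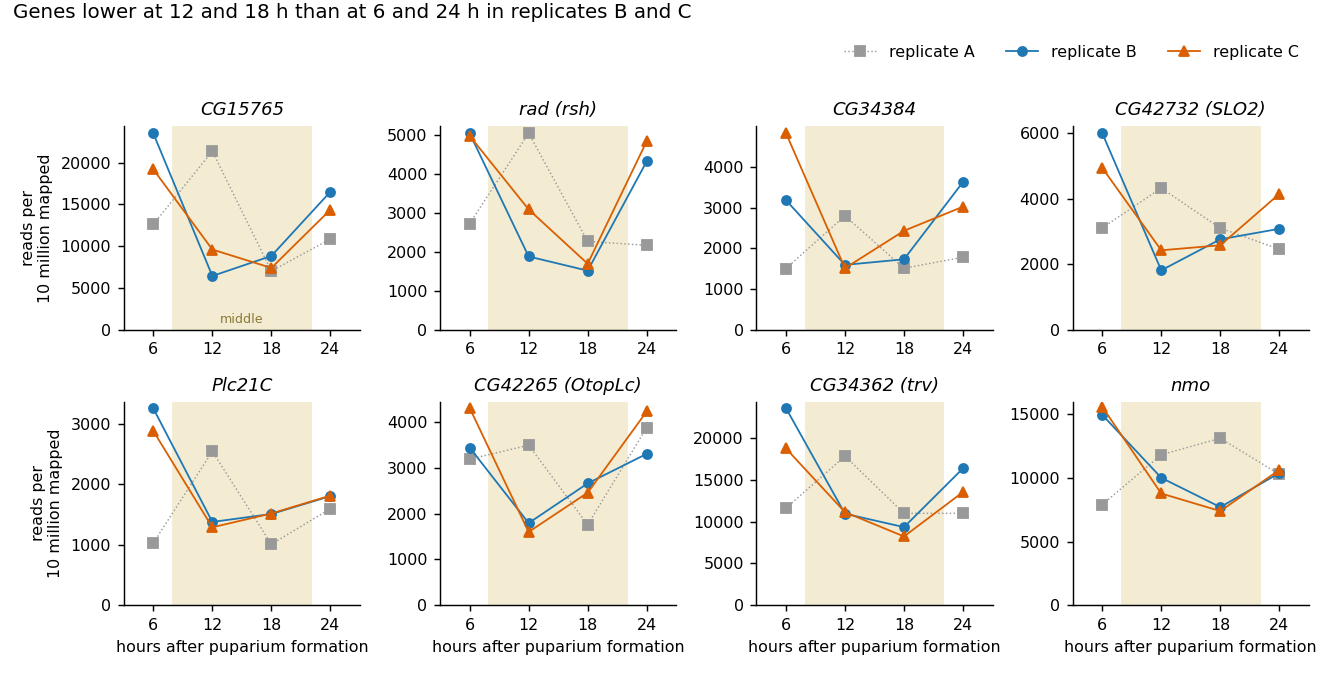
Values (reads per 10000000 mapped reads) at 6, 12, 18 and 24 h for 8 genes lower in the middle, with 1 line per replicate letter and the middle times shaded. In B and C every shaded point lies below the 6 h and 24 h points of both letters, as the choice of these genes required. The 12 h point of replicate A (grey squares, dotted) lies above those of B and C in all 8 panels.

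On the side of the peaks the same rule gave 13 genes, of which CG7215 and Prx5 have identical coordinates and identical values and count as 1 signal. Of the 13, 1 is not reported here. None of the others is among the 22 genes, drawn from those named here, that kept their call without each of the 8 libraries. Of those described next, dj-1beta and CG13300 alone kept their call after median-ratio scaling.

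The gene dj-1beta, the fly counterpart of the human Parkinson disease gene DJ-1, had 1355 and 2142 at 12 h and 1743 and 2048 at 18 h in B and C, against 530 and 851 at 6 h and 1063 and 908 at 24 h. Its log2 difference was 1.14 ± 0.24 (adjusted p = 0.0161). Replicate A had 706 at 12 h and 932 at 18 h, against 1981 at 6 h and 2164 at 24 h, which is the opposite order at both ends. The shared signal of Prx5, a peroxiredoxin, and CG7215 was 2764 and 2979 at 12 h and 2266 and 3220 at 18 h in B and C, against 1655 and 1716 at 6 h and 1456 and 1289 at 24 h (0.87 ± 0.18, adjusted p = 0.0161). In A it was 1752 and 2286 in the middle and 2266 at both ends.

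Several genes of this set act on messenger RNA, its translation or DNA. CG7185 (Cpsf6), part of the machinery that cleaves and polyadenylates transcripts, had 3186 and 3497 at 12 h and 3848 and 3636 at 18 h in B and C, against 1975 and 1615 at 6 h and 2829 and 2281 at 24 h (0.73 ± 0.17, adjusted p = 0.0277). Hel25E, a helicase of splicing and mRNA export, had 3497 to 4036 in the 4 middle libraries, against 1584 to 2927 in the 4 end libraries (0.73 ± 0.16, adjusted p = 0.0226). Ef1alpha100E (eEF1alpha2), the elongation factor that brings aminoacyl-tRNA to the ribosome, had 42770 to 52198 in the middle, against 25835 to 40582 at the ends (0.64 ± 0.12, adjusted p = 0.0088). Top2, the DNA topoisomerase that passes strands to untangle DNA, had 3011 to 3799 in the middle, against 1684 to 2677 at the ends (0.67 ± 0.16, adjusted p = 0.0448). In A the 12 h value of each of these 4 genes was below the 6 h value, and the 18 h value was above 12 h.

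The postsynaptic adhesion gene Nlg3 (neuroligin 3) had 1901 and 2153 at 12 h and 1894 and 1667 at 18 h in B and C, against 879 and 576 at 6 h and 1427 and 1474 at 24 h (0.90 ± 0.21, adjusted p = 0.0315). For Nlg3 replicate A had 1136 at 12 h and 2112 at 18 h, against 874 at 6 h and 1521 at 24 h. The 6 h value was thus the lowest in all 3 letters, and 12 h in A lay below 24 h. Bacc had 35515 to 42878 in the middle of B and C, against 21756 to 31652 at the ends (0.62 ± 0.12, adjusted p = 0.00788). In A Bacc had 28338 at 12 h and 46121 at 18 h, against 34258 at 6 h and 40533 at 24 h. It overlaps Pgk, a gene with fewer reads, on the opposite strand, and Pgk was called as lower. Of the others, CG13300 differed by 0.99 ± 0.19 (adjusted p = 0.0084), CG11590 by 0.98 ± 0.23 (adjusted p = 0.03) and CG2061 by 0.82 ± 0.19 (adjusted p = 0.0283). In A CG13300 had 1066 at 12 h and 2004 at 18 h, against 1353 at 6 h and 2235 at 24 h. In the same order CG11590 had 966 and 1219, against 1443 and 1245, and CG2061 had 1865 and 2702, against 2994 and 2950. CG11590 and CG2061 thus had a dip in A.

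**Figure D3:**
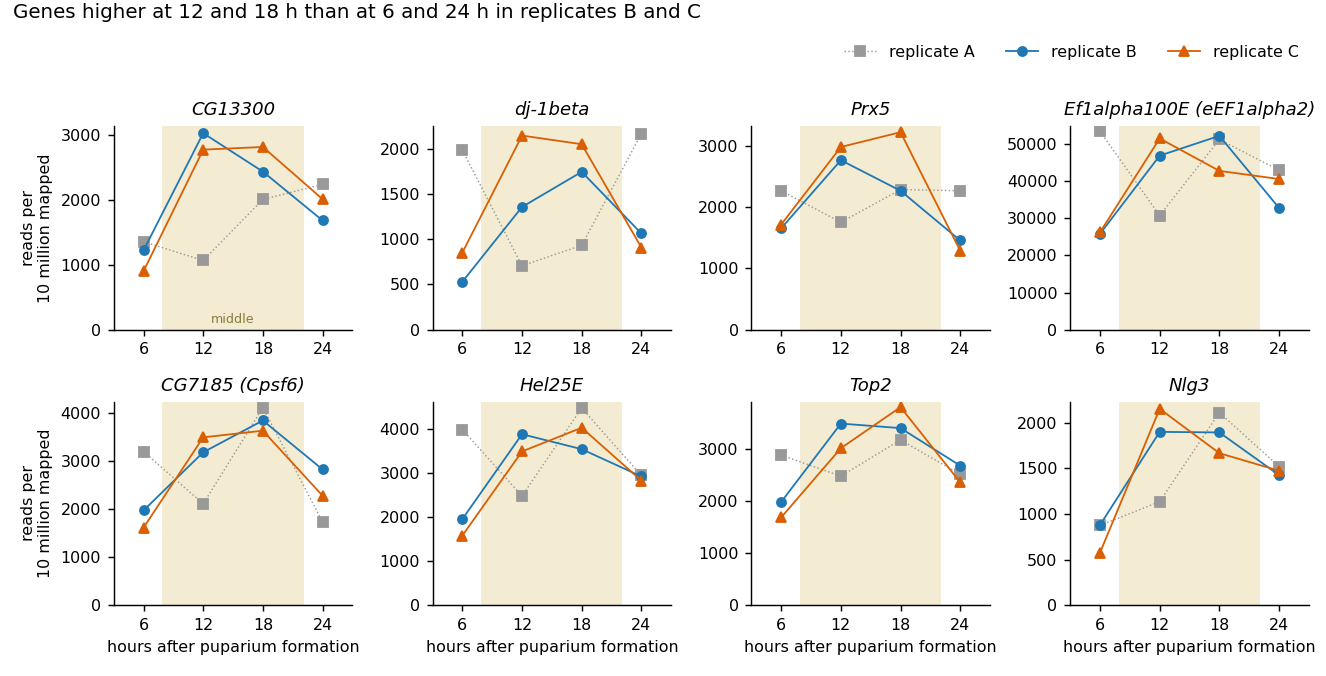
Values (reads per 10000000 mapped reads) at 6, 12, 18 and 24 h for 8 genes higher in the middle, with 1 line per replicate letter and the middle times shaded. In B and C each gene is highest at 12 or 18 h, as the choice of these genes required, and lowest at 6 h or, for Prx5, at 24 h.

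Few genes held their peak or dip in all 12 libraries. Middle values did not overlap with end values in 10 genes higher in the middle (0.143% of genes tested) and 1 gene lower (0.0143%). With 4 values on each side in B and C alone, the counts were 197 (2.83%) and 87 (1.25%). With a mean of at least 200, the genes without overlap over 12 libraries were CG7101, CG3740, 26-29-p, fdl, Gos28 and CG31086, all higher, and C3G, lower. The other 4 higher genes, sug, ntc, CG10341 and CG43343, had lower means. All 11 had an adjusted p of 0.953 or more by limma over 12 libraries.

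CG7101, at X:18830591-18832123, had 261 and 567 at 12 h and 565 and 509 at 18 h in B and C, against 213 and 232 at 6 h and 212 and 131 at 24 h. In A it had 246 at 12 h and 369 at 18 h, against 99.1 at 6 h and 112 at 24 h, so that the 3 letters had the same order (log2 difference over 12 libraries 1.33, in A 1.51). The gene 26-29-p (CtsK1), a cysteine protease of the cathepsin family, had 659 and 637 at 12 h and 502 and 623 at 18 h in B and C, against 373 and 313 at 6 h and 263 and 349 at 24 h. Replicate A had 496 and 872 in the middle, against 452 at 6 h and 209 at 24 h. Its log2 difference was 0.97 over 12 libraries, 0.90 in B and C and 1.09 in A.

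Sugar trimming and Golgi traffic were represented by fdl and Gos28. fdl (fused lobes) encodes a hexosaminidase that trims N-linked glycans and was named for a mushroom body phenotype; it had 729 and 766 at 12 h and 696 and 450 at 18 h in B and C, against 216 and 394 at 6 h and 364 and 360 at 24 h. In A the difference was smaller, with 443 and 572 in the middle, against 435 and 362 at the ends. Gos28, a Golgi SNARE that fuses vesicles, had 402 and 545 at 12 h and 439 and 411 at 18 h in B and C, against 328 and 357 at 6 h and 161 and 301 at 24 h. Replicate A had 420 and 477 in the middle, against 246 and 291 at the ends, close to the range of the other letters. C3G, an activator of the small GTPase Rap1, was the gene lower in every middle library: 1717 and 1754 at 12 h and 1768 and 1321 at 18 h in B and C and 1162 and 1310 in A, against 1769 and 2066 at 6 h and 2085 and 1932 at 24 h in B and C and 1934 and 2730 in A. At 6 h in B it was 1 unit above the highest middle value. CG3740 and CG31086 overlap other genes on the same strand (Mur2B and CG31323), and their values are uncertain. So are those of fdl, which overlaps s-cup on the opposite strand. Among genes described below, the same holds for Hr4 (CG4406) and Pgk (Bacc), with the overlap on the opposite strand. It holds too for Kr-h1 (CG45075), beat-Ic (CG13245 and CG43816) and fas (CG13337 and CG18368), with the overlap on the same strand.

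The member with the largest peak among genes with a mean of at least 200 was Hsp68, a heat-inducible chaperone of the Hsp70 class. It had 1815, 1024 and 2121 at 12 h in A, B and C and 2051, 1013 and 188 at 18 h, against 297, 213 and 194 at 6 h and 174, 405 and 251 at 24 h. High values thus stood in 5 of 6 middle libraries and in none of the end libraries, and 18 h C was at the level of the ends. The log2 difference was 2.13 over 12 libraries (limma adjusted p = 0.953), 1.65 ± 0.47 in B and C (adjusted p = 0.0916) and 3.08 in A. Without 18 h C it was 2.62 over 11 libraries, and Hsp68 was then the 1 gene that limma called (adjusted p = 0.00724). The protocol in the labels includes a digestion of the brains at 29 °C before sorting, which all libraries share; its part in the level of heat shock genes was not tested.

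Other Hsp70-class genes had the same order of means, with more overlap. Hsp70Bc had 743, 659 and 1500 at 12 h in A, B and C and 1804, 1253 and 262 at 18 h, against 771, 128 and 507 at 6 h and 393, 490 and 654 at 24 h. As for Hsp68, 18 h C was low. Hsp70Aa and Hsp70Ab overlap and have near-identical sequences in the genome, as have the Hsp70B copies, so reads could be split or shared between them. Hsp70Aa had 330, 191 and 464 at 12 h and 338, 203 and 158 at 18 h, against 146, 77.3 and 31.3 at 6 h and 102, 240 and 109 at 24 h. Hsp70Ab had the same values except for 151 at 6 h in A, so Hsp70Aa and Hsp70Ab count as 1 signal. Of 18 heat shock and chaperone genes measured, a list without Hsp70Bc, 6 were higher members and 2 lower. These were 33.3% and 11.1%, against 19.2% and 9.00% of all genes, with Hsp70Aa and Hsp70Ab counted apart among the 6. In B and C 0 were called higher and 2 lower (11.1%, against 2.34% of all genes). The 2 were Hsp26, given above, and Hsp67Bc, a small heat shock protein gene with 15925 and 15430 at 12 h and 12325 and 9314 at 18 h in B and C, against 40091 and 47613 at 6 h and 13856 and 10702 at 24 h. In B and C Hsp67Bc was high at 6 h only and had no dip in the middle.

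**Figure D4:**
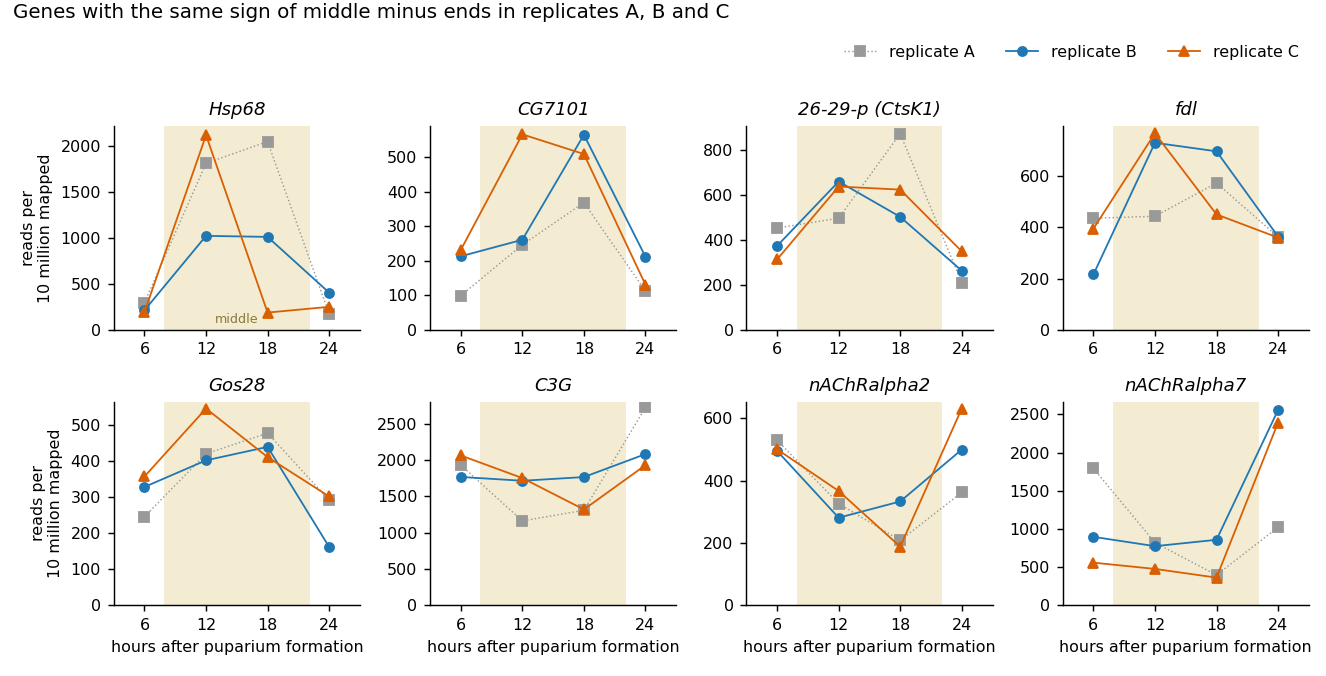
Values (reads per 10000000 mapped reads) at 6, 12, 18 and 24 h for 8 genes whose log2 difference, middle minus ends, had the same sign in each of A, B and C, with 1 line per letter and the middle times shaded. Hsp68 is high in 5 of 6 middle libraries, with 18 h C at the level of the ends, and nAChRalpha2 and nAChRalpha7 are lower in the middle in each letter.

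The ionotropic receptor list held more genes with a dip than with a peak. Of 22 ionotropic and GABA-B receptor genes measured, 0 were higher members and 4 lower over all columns, and 1 and 6 by the means of B and C, while 19.2% and 9.00% of all genes tested were higher and lower members. The contrast in B and C called 1 higher and 2 lower (13.6%, against 2.34% of all genes). The median log2 difference of the list was −0.18 in B and C, −0.12 over 12 libraries and 0.00 in A, against 0.11, 0.09 and 0.02 for all genes tested. The 4 lower members were all nicotinic acetylcholine receptor subunits, the channels through which fast cholinergic input reaches these neurons: nAChRalpha2, nAChRalpha3, nAChRalpha7 and nAChRbeta1. The means of B and C had the dip for nAChRalpha2 and nAChRalpha7 and not for the other two.

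nAChRalpha2 had 281 and 367 at 12 h and 333 and 188 at 18 h in B and C, against 496 and 501 at 6 h and 500 and 632 at 24 h. Replicate A had 326 and 208 in the middle, against 530 at 6 h and 362 at 24 h, the same order (log2 difference −0.85 over 12 libraries, adjusted p = 0.953). nAChRalpha7 had 773 and 475 at 12 h and 857 and 361 at 18 h in B and C, against 895 and 557 at 6 h and 2557 and 2393 at 24 h, so that its dip was shallow on the 6 h side. Replicate A had 819 and 395 in the middle, against 1792 and 1021 at the ends (log2 difference −1.21 over 12 libraries, −1.19 ± 0.31 in B and C, adjusted p = 0.058 there).

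The receptor genes that were called had other courses. nAChRalpha1 had 1492 and 1473 at 12 h and 1228 and 1143 at 18 h in B and C, against 6686 and 4170 at 6 h and 1699 and 1431 at 24 h (−1.11 ± 0.20, adjusted p = 0.00517), so it stayed low at 24 h. In A it had 3553 at 12 h and 1696 at 18 h, against 1452 at 6 h and 1786 at 24 h. nAChRalpha6 had 12100 and 9687 at 12 h and 6439 and 5376 at 18 h, against 12612 and 11526 at 6 h and 11695 and 10818 at 24 h (−0.55 ± 0.13, adjusted p = 0.0466), a dip at 18 h. The GABA receptor gene Rdl was called higher (0.83 ± 0.17, adjusted p = 0.0158). In B and C it had 8523 to 14016 in the middle, against 1960 and 3707 at 6 h and 14195 and 14860 at 24 h. Of these 3 genes, nAChRalpha1 and nAChRalpha6 had the dip by the means of B and C, and none was a member over all columns.

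Among 25 measured receptors for monoamines, acetylcholine of the muscarinic type and peptides, 3 were higher and 4 lower members (19.2% and 9.00% of all genes), and by the means of B and C 1 and 7 (21.5% and 9.76% of all genes). Called in B and C were 2 as higher and 3 as lower (20%, against 2.34% of all genes). The list's median log2 difference was −0.48 in B and C, −0.24 over 12 libraries and 0.19 in A, where the medians of all genes were 0.11, 0.09 and 0.02. Octbeta1R, an octopamine receptor, had 70.3 and 59.4 at 12 h and 181 and 74.2 at 18 h in B and C, against 1780 and 1434 at 6 h and 234 and 356 at 24 h (−2.96 ± 0.47, adjusted p = 0.00254). AstA-R1, a receptor for allatostatin A, had 0 and 10.8 at 12 h and 71.7 and 64.3 at 18 h, against 1943 and 1596 at 6 h and 60.1 and 316 at 24 h (−5.01 ± 0.89, adjusted p = 0.00588). In B and C both were mainly genes high at 6 h with a small return at 24 h. In A both were highest at 12 h. Octbeta1R had 873 at 12 h and 165 at 18 h there, against 379 at 6 h and 276 at 24 h. AstA-R1 had 849 and 121 in the middle of A, against 0 at 6 h and 5.1 at 24 h. Lkr, the leucokinin receptor, was called higher in B and C (4.45 ± 0.50, adjusted p = 0.000105). It had 371 to 1667 in the middle of B and C, against 0 in both at 6 h and 1861 and 1772 at 24 h, and so had no peak. In A Lkr was highest at 6 h, with 2231 there and 944 at 24 h, against 9.99 at 12 h and 1058 at 18 h.

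The axon guidance list held more genes with a dip than with a peak by both sets of means, and the reverse in A. In A alone 10 had a peak and 3 a dip (19.2% and 17.2% of all genes). Of 39 measured guidance ligands and receptors, 5 were higher and 7 lower members (19.2% and 9.00% of all genes), and by the means of B and C 3 and 9 (21.5% and 9.76% of all genes). Of the 39, 1 was called higher and 2 lower in B and C (2.34% of all genes were called), with a median log2 difference of −0.13, against −0.11 over 12 libraries and 0.14 in A. Their summed reads were 0.658% to 0.776% of all reads in the 4 middle libraries of B and C, against 0.810% to 0.850% in the 4 end libraries; in A they were 0.763% and 0.660%, against 0.614% at 6 h and 0.814% at 24 h. Dscam4 and Dscam3, relatives of the cell-recognition gene Dscam1, were called lower. Dscam4 had 2610 and 1392 at 12 h and 2414 and 1820 at 18 h in B and C, against 5450 and 5416 at 6 h and 3500 and 2535 at 24 h (−1.01 ± 0.21, adjusted p = 0.0155). Replicate A of Dscam4 had 3434 at 12 h and 2125 at 18 h, against 1766 at 6 h and 2567 at 24 h. Dscam3 was called lower (adjusted p = 0.0161): it had 1563 and 1182 at 12 h and 1565 and 910 at 18 h in B and C, against 4925 and 4326 at 6 h and 1446 and 1384 at 24 h, with a slight dip by the means of these letters. Dscam2 was called higher and was highest at 24 h (0.93 ± 0.19, adjusted p = 0.0158).

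Other surface proteins followed 1 of these courses. CadN, the neuronal cadherin, had 10414 and 12186 at 12 h and 8304 and 7286 at 18 h in B and C, against 21150 and 16904 at 6 h and 12676 and 10749 at 24 h (−0.67 ± 0.14, adjusted p = 0.0135). In A it had 16585 at 12 h and 8214 at 18 h, against 6005 at 6 h and 12013 at 24 h. CG31814 (DIP-kappa), an immunoglobulin protein that binds members of the Dpr family, had 110 and 64.8 at 12 h and 42.2 and 183 at 18 h, against 1210 and 1709 at 6 h and 506 and 338 at 24 h (−3.14 ± 0.51, adjusted p = 0.00329). All 4 middle values were below the ends in B and C, and in A the gene was highest at 12 h, with 1316. DIP-gamma (1.55 ± 0.20, adjusted p = 0.000395), dpr6 (0.99 ± 0.19, adjusted p = 0.0088) and beat-Ic (5.72 ± 0.34, adjusted p = 2.04e-07) were called higher and were higher at 24 h than at 12 h. dpr8 was called lower (−0.54 ± 0.13, adjusted p = 0.04), and fas, of the cell adhesion list, higher (0.58 ± 0.14, adjusted p = 0.0466) with no peak. dpr12 and DIP-delta, the receptor pair in the series title, were not called (−0.03 ± 0.29, adjusted p = 0.984, and 0.89 ± 0.43, adjusted p = 0.385) and were not members. DIP-delta had 566 and 615 at 12 h and 1696 and 1474 at 18 h in B and C, against 40 and 275 at 6 h and 2693 and 2411 at 24 h.

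Replicate A made some genes members that had no dip in B and C. DIP-theta had 56.9 and 97.1 at 12 h and 481 and 203 at 18 h in B and C, against 0 and 0 at 6 h and 699 and 763 at 24 h. With 1098 at 6 h in A, against 0 at 12 h and 17.3 at 18 h in A, its means over 3 letters had a dip. ETHR, the receptor for ecdysis-triggering hormone, likewise had 896 at 6 h in A, against 8 and 6.3 at 6 h in B and C. Of the members, 896 of 1337 higher ones and 317 of 627 lower ones had the same order by the means of B and C.

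Of the 39 gene lists, that of ecdysone-response genes had the largest share called. Of 28 measured, 4 were called higher and 5 lower in B and C (32.1%, against 2.34% of genes tested), with a median log2 difference of −0.27 in B and C, −0.04 over 12 libraries and 0.45 in A. By the means of B and C 5 had a peak and 7 a dip (21.5% and 9.76% of all genes). Over all columns 3 were higher and 2 lower members (10.7% and 7.14%, against 19.2% and 9.00% of all genes). In A alone 9 had a peak and 1 a dip (19.2% and 17.2% of all genes). Hr4, a nuclear receptor of the prepupal hormone response, had 733 and 1635 at 12 h and 418 and 791 at 18 h in B and C, against 11933 and 10819 at 6 h and 2484 and 2498 at 24 h (−2.74 ± 0.25, adjusted p = 1.73e-05). All 4 middle values were below both ends, and the 24 h values reached less than the 6 h ones. In A Hr4 had 8176 at 12 h and 1357 at 18 h, against 1667 at 6 h and 1112 at 24 h.

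EcR, the ecdysone receptor that γ neurons need for pruning, had 4464 and 4566 at 12 h and 4249 and 4892 at 18 h in B and C, against 1431 and 1265 at 6 h and 3822 and 4213 at 24 h (0.97 ± 0.15, adjusted p = 0.00266). The 4 middle values were above all end values by a narrow margin at 24 h. Replicate A of EcR had 1665 at 12 h and 4671 at 18 h, against 3558 at 6 h and 4945 at 24 h. Kr-h1, a zinc finger gene that responds to juvenile hormone and ecdysone, had 80.3 and 151 at 12 h and 21.1 and 74.2 at 18 h, against 6675 and 5491 at 6 h and 69.6 and 178 at 24 h (−3.62 ± 0.54, adjusted p = 0.00136), a fall after 6 h that lasted. Replicate A of Kr-h1 had the reverse at 6 h and 12 h, with 2628 at 12 h and 265 at 18 h, against 8.62 at 6 h and 107 at 24 h. Blimp-1 (2.01 ± 0.19, adjusted p = 1.73e-05) and Eip93F (0.99 ± 0.13, adjusted p = 0.000573), both transcription factors of the ecdysone cascade, were called higher and stayed high at 24 h.

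ImpE2 and ImpE1, ecdysone-inducible genes first found in imaginal discs, were members with a dip. ImpE2 had 66.6, 10 and 16.2 at 12 h in A, B and C and 21.7, 59.1 and 9.89 at 18 h, against 401, 474 and 326 at 6 h and 51, 50.6 and 349 at 24 h. The high values stood at 6 h in all 3 letters and at 24 h in C alone (log2 difference −3.04 over 12 libraries, limma adjusted p = 0.953; DESeq2 adjusted p = 0.0087). Eip75B, a nuclear receptor gene, was a higher member, with 46869 to 62457 in the 4 middle libraries of B and C, against 37076 to 49248 in the 4 end libraries (0.37 ± 0.12, adjusted p = 0.152).

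Most cytosolic ribosomal protein genes had a peak by the means of B and C, and 1 had it in A. Of 81 measured, 58 had a peak by the means of B and C and 0 a dip, against 1497 and 680 of all 6969 genes. In B and C 2 were called (2.47%, near the 2.34% of all genes). Their median log2 difference was 0.32 in B and C, against 0.11 for all genes. In A 1 had a peak and 31 a dip, with a median of −0.33, and over all 12 columns 11 were higher members and 1 lower, with a median of 0.12. The list held 8.52% to 10.2% of reads in the middle of B and C, against 6.15% to 8.94% at their ends; in A it held 7.80% and 9.34%, against 12.0% at 6 h and 9.44% at 24 h. RpS24, 1 of the 2 called, had 10869 and 12245 at 12 h and 13523 and 12677 at 18 h in B and C, against 5657 and 7670 at 6 h and 9610 and 10335 at 24 h (0.60 ± 0.14, adjusted p = 0.028). RpS30 was the other (0.61 ± 0.15, adjusted p = 0.0463). Neither was called after median-ratio scaling or by edgeR. Since the libraries are bulk pools, fewer cells of a type and less RNA per cell cannot be told apart.

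Genes of mitochondrial respiration had a like median, and their counts of members and of calls were near or below those of all genes. Of 70 measured, 10 were higher and 7 lower members (14.3% and 10%, against 19.2% and 9.00% of all genes). By the means of B and C 14 had a peak and 3 a dip, against 21.5% and 9.76% of all genes. Called were 2 (2.86%, against 2.34% of all genes), both higher. The median log2 difference was 0.37 in B and C, 0.08 over 12 libraries and −0.49 in A. The ATP synthase subunit genes ATPsynC (0.74 ± 0.12, adjusted p = 0.00295) and blw (0.66 ± 0.12, adjusted p = 0.00775) were called. ATPsynC had 24421 and 21269 at 12 h and 28819 and 28639 at 18 h in B and C, against 8764 and 8922 at 6 h and 24884 and 28616 at 24 h, and so stayed high. In A it had 10254 at 12 h and 23388 at 18 h, against 36730 at 6 h and 27618 at 24 h. The median of glycolysis genes in B and C had the other sign, and their member counts over all columns did not. Of 12 measured, 2 were higher members and 0 lower over all columns (19.2% and 9.00% of all genes), while by the means of B and C 1 had a peak and 3 a dip (21.5% and 9.76% of all genes). In B and C 2 of the 12 were called, Eno and Pgk, both lower (2.34% of all genes were called). Eno (enolase) had 4374 and 4571 at 12 h and 5464 and 5748 at 18 h, against 12559 and 14143 at 6 h and 4408 and 4227 at 24 h (−0.60 ± 0.13, adjusted p = 0.0238). The median log2 difference of glycolysis genes was −0.74 in B and C, −0.21 over 12 libraries and 1.06 in A.

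**Figure D5:**
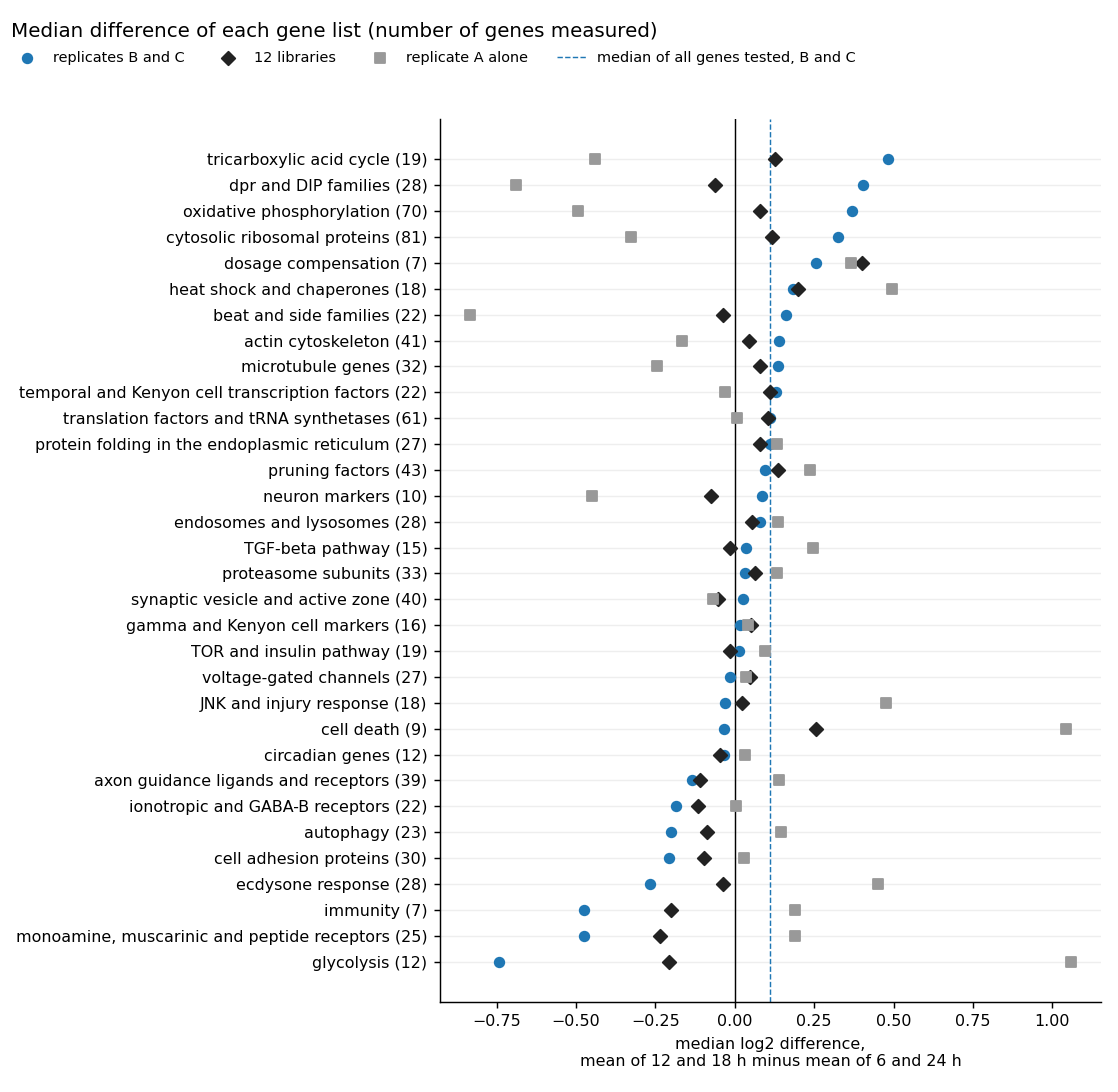
Median log2 difference (mean of 12 and 18 h minus mean of 6 and 24 h) of each gene list with at least 7 genes measured, in replicates B and C, over 12 libraries and in replicate A alone, with the median of all genes in B and C as a dashed line. Glycolysis lies lowest in B and C at −0.74 and highest in A at 1.06, with its 12-library median between them at −0.21.

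Both main tubulin genes were called higher, with a shallow return at 24 h. Of 32 microtubule genes measured 3 were called higher and 1 lower in B and C (12.5%, against 2.34% of all genes), with a median log2 difference of 0.14, close to the 0.11 of all genes. betaTub56D had 22798 and 21102 at 12 h and 28278 and 25369 at 18 h in B and C, against 7800 and 7770 at 6 h and 18311 and 21462 at 24 h (0.96 ± 0.12, adjusted p = 0.000301). Replicate A of betaTub56D was lowest at 12 h, with 9298 there and 21866 at 18 h, against 32780 at 6 h and 18810 at 24 h. alphaTub84B had 29053 and 38382 at 12 h and 43743 and 36483 at 18 h, against 14520 and 17655 at 6 h and 21153 and 31511 at 24 h (0.85 ± 0.15, adjusted p = 0.00588). Both had the peak by the means of B and C. Of 41 actin cytoskeleton genes, Act5C alone was called, a share near that of all genes (0.73 ± 0.11, adjusted p = 0.0021), and it was as high at 24 h as in the middle. Its values were 58272 and 64476 at 12 h and 98983 and 97277 at 18 h, against 28063 and 27128 at 6 h and 73198 and 86706 at 24 h.

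Among kinases and transcription factors, msn (misshapen), a kinase upstream of JNK, had 3460 and 3373 at 12 h and 3114 and 2933 at 18 h in B and C, against 9798 and 8252 at 6 h and 3819 and 3650 at 24 h (−0.85 ± 0.14, adjusted p = 0.00423). All its middle values were below the ends, though those at 24 h were close. In A msn had 6724 at 12 h and 3903 at 18 h, against 2050 at 6 h and 4332 at 24 h. Tak1, another kinase upstream of JNK, was a higher member with the peak in each letter: 869, 616 and 944 at 12 h in A, B and C and 889, 544 and 742 at 18 h, against 314, 424 and 545 at 6 h and 480, 443 and 200 at 24 h. The middle and end values of Tak1 met at 1 point, 544 in 18 h B and 545 in 6 h C (0.88 ± 0.34 in B and C, adjusted p = 0.253). Other genes called higher without a peak were Ca-alpha1T, a T-type calcium channel (3.10 ± 0.37, adjusted p = 0.000225), and the transcription factor gene ab (1.70 ± 0.26, adjusted p = 0.0021). Called lower without a dip were Stam, of endosomal sorting (−1.06 ± 0.18, adjusted p = 0.00488), the microtubule-binding Jupiter (−0.51 ± 0.13, adjusted p = 0.0474) and the Toll receptor gene Tl (−1.03 ± 0.22, adjusted p = 0.0203). nvy, a transcriptional corepressor gene, had 77 and 10.8 at 12 h and 207 and 39.6 at 18 h in B and C, against 975 and 1171 at 6 h and 199 and 192 at 24 h (−3.12 ± 0.71, adjusted p = 0.0281), a dip by the means of these letters. S6k, the kinase of ribosomal protein S6 downstream of TOR, was called lower without a dip (−0.83 ± 0.17, adjusted p = 0.014).

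Of all genes 2.34% were called. Lists in which no gene was called in B and C, given with their higher and lower members (19.2% and 9.00% of all genes), were synaptic vesicle and active zone genes (40 measured, 2 higher and 8 lower members), proteasome subunits (33, 7 and 4), autophagy (23, 4 and 1), cell death (9, 1 and 0), the TGF-β pathway (15, 3 and 2), the tricarboxylic acid cycle (19, 5 and 2), protein folding in the endoplasmic reticulum (27, 7 and 1) and dosage compensation (7, 2 and 0). The 43 pruning factors had 7 higher and 1 lower member (16.3% and 2.33%), and EcR was the 1 called (2.33%). Of genes that mark other cells, none of the measured glia, fat body, photoreceptor, muscle, cuticle and dividing cell markers was called. The dividing cell marker PCNA was a higher member with 84 and 389 at 12 h and 169 and 138 at 18 h in B and C, against 10.7 and 25 at 6 h and 3.2 and 14.5 at 24 h (3.82 ± 1.01, adjusted p = 0.0637). Replicate A had 66.6 at 12 h and 0 at 18 h, against 90.5 at 6 h and 230 at 24 h.

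Members with a peak came from shorter genes than members with a dip. The median length of the gene locus in the table was 2655 bases for higher members and 3732 for lower ones, against 3203 for all genes tested. With genes ranked by length into 5 groups of like number, higher members were 21.8% of the group with the shortest genes and 11.4% of that with the longest, while lower members were 8.61% and 11.3%. Of the genes called in B and C, 41 of the 79 higher and 66 of the 84 lower lay in the group with the longest genes. That group held 36.4% to 40.2% of reads in the middle libraries, against 33.0% to 43.6% in the end libraries, and in B and C 36.4% to 39.0%, against 38.7% to 43.6%; the part of this shift in the calls was not tested. Protein-coding genes were 98.3% of higher members and 96.8% of lower ones, against 97.8% of all genes tested. On the X chromosome lay 16.4% of higher and 19.0% of lower members, against 17.5% of all genes.

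At the edge of the rule, alphaCOP was a member with means of 1041 at 12 h and 1035 at 18 h, against 1035 at 6 h and 778 at 24 h, its 18 h mean being 1.0003 times its 6 h mean. CG13920 was a lower member with 1622 at 12 h and 1284 at 18 h, against 1622 at 6 h and 1630 at 24 h. CG11710, with 145 at 12 h and 260 at 18 h, against 260 at 6 h and 323 at 24 h, was just outside.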

How the data were processed

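Polyadenylated RNA of sorted γ neurons was profiled with MARS-seq, a 3′-end method, per the labels' protocols. Per the submitters' processing notes the tools were HISAT 0.1.5, HOMER and bcl2fastq, with no role given for any. Whether molecular identifiers collapsed PCR duplicates, and how multiply mapped reads were treated, the sources used here do not say. The deposited signal is reads per gene scaled by the authors to 10000000 mapped reads, per the file headers. Divided by what 1 read is worth in its library, 100% of nonzero values came out whole within 0.02 reads, and these reads entered the count tests.

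From these values limma 3.58.1 (R 4.3.3, intensity trend, log2(value + 1), 1 mean per time) gave the contrast over 12 libraries and over the 8 of B and C, two-sided, with Benjamini-Hochberg adjustment over 6969 genes. Fold changes are on that scale and understate changes of low genes. The 4 pairwise contrasts between middle and end times gave the stricter test, by their largest p. edgeR 4.0.16 and DESeq2 1.42.0 were run on recovered reads. The scripts were tested on simulated data. Gene names and strands came from the BDGP6 annotation, which matched 99.0% of the table's genes; 95.6% of the table's genes had the same coordinates there. Coordinates are the table's, counted from 1.

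Genes were named by rule: members with no overlap over 12 libraries and a mean of at least 200; genes called in B and C that were members by both sets of means, without overlap in B and C and with that mean; up to 3 genes with the smallest p of each of 39 lists; and Hr51, EcR, dpr12, DIP-delta and Kr-h1. Not all list genes are printed, and 1 gene that the rule names is not reported here. Hsp68, the Hsp70 genes, Sirup, Lgr3, ImpE1, ImpE2, Eip75B, nAChRalpha2, nAChRalpha3, nAChRalpha7, nAChRbeta1, DIP-theta, ETHR, Atg10, CG31323, Tbp and HP1c were chosen after their values were seen. The members, the lists and the fit in B and C alone were chosen with earlier results of these data known.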

Additional observations from a re-analysis of the deposited data

How the results depend on the processing

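Over 12 libraries the contrast called 0 genes under every alternative except DESeq2 (2 genes), the fit without 18 h replicate C (1 gene) and, added after the data had been seen, the fit without replicate A of 6 h and 12 h (144); leaving out 1 library gave 0 to 1. In B and C the 163 calls became 184 with a pseudocount of 10, 115 with no filter on low values, 204 among genes that reached 200 in 3 columns, 159 with median-ratio scaling, 208 with edgeR and 325 with DESeq2. Leaving out 1 library gave 57 to 157; each time with 1 library left is then assumed to vary like the others. The stricter test called 0 in both fits under every alternative except DESeq2 in B and C (1 gene); leaving out 1 library gave 0. With no filter, 17 of the 60 called genes that are named kept their call, and with a pseudocount of 10 or the filter at 200 all 60 did. The causes were not tested. dpr12, near 0, ranged from −0.22 to 0.16 when 1 library was left out. The medians of the ribosomal, respiration, glycolysis, guidance, ecdysone and both receptor lists in B and C, less the median of all genes, kept their sign under every alternative. These alternatives were all fits within B and C. With 1 library left out, members numbered 1216 to 1484 higher and 533 to 749 lower, and 1293 and 654 by means of log2(value + 1).

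With the replicate letter as a block, B and C gave 192 calls and 12 libraries 0. Deviations of libraries with the same letter correlated by −0.34 to 0.07, so the letters give no pairing, and the block is shown for completeness. At the depth of these libraries a value of 50 rests on 8 to 18.8 reads, and ratios of genes at that level are imprecise.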

Other observations

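A few higher members that were not called had a peak by the means of all 3 letters. Sirup, an assembly factor of succinate dehydrogenase, had 972, 442 and 1106 at 12 h in A, B and C and 1691, 485 and 465 at 18 h, against 194, 581 and 250 at 6 h and 321, 199 and 294 at 24 h. Its middle values lay above the ends except at 6 h B (log2 difference 1.40 over 12 libraries, limma adjusted p = 0.953). Replicate B of Sirup had no peak, and the gene overlaps Wwox on the opposite strand, so its values are uncertain. Lgr3, a relaxin-type receptor, had 103, 418 and 162 at 12 h and 178, 42.2 and 242 at 18 h, against 0, 18.7 and 50.1 at 6 h and 0, 66.4 and 18.2 at 24 h, and its replicate B also had none, since 18 h lay below 24 h. Tbp, the TATA-binding protein of transcription initiation, had 663, 432 and 1133 at 12 h and 703, 684 and 866 at 18 h, against 543, 416 and 419 at 6 h and 592, 373 and 389 at 24 h. It overlaps CG10306 on the opposite strand, so its values are uncertain. The heterochromatin protein gene HP1c had a peak in B and C, with 1395 and 1549 at 12 h and 1595 and 1400 at 18 h, against 754 and 795 at 6 h and 1050 and 723 at 24 h (0.85 ± 0.22, adjusted p = 0.0604), and in A it had 889 and 1310 in the middle, against 1856 and 1041 at the ends.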
